A study of Mus musculus with 6 samples.

Results

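The 5 genes described here encode the class I histone deacetylases (Hdac1, Hdac2, Hdac3 and Hdac8) and the class IV enzyme (Hdac11), chosen by symbol from the 55471 genes of a hippocampal RNA-seq table. All 5 were found and tested. The data comprise 6 libraries, each from the hippocampus of a single mouse: 3 P300-ifKO and 3 Control. All mice were C57BL/6 (C57BL/6J in the methods), 3 to 6 months old, and tamoxifen, dissolved at 20 mg/ml in corn oil, was given to every mouse 5 times. P300-ifKO mice carried floxed alleles of Ep300 and Camk2a-creERT2, an inducible Cre active in excitatory neurons of the adult forebrain. By the labelled protocol the Control mice were littermates that lacked creERT2, although the driver is named in the labelled description of all 3 Control libraries. The methods of the study state that males were used, and that the recombined allele leaves a truncated p300 protein without acetyltransferase activity. Interneurons, glia and vessels keep an intact Ep300 gene in this model. In bulk tissue, fewer cells of a type and less RNA per cell cannot be told apart.

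Histone deacetylases (HDACs) remove acetyl groups from lysines, the reverse of the reaction catalysed by p300 and its paralog CBP (Crebbp). Hdac1 and Hdac2 are closely related and form the catalytic core of the NuRD, Sin3, CoREST and MiDAC corepressor complexes. Hdac3 works within the NCoR complex. Hdac8, encoded on the X chromosome, acts without a large corepressor complex, and its best known substrate is the cohesin subunit Smc3. Hdac11, the sole class IV enzyme, removes long-chain fatty acyl groups from proteins efficiently. In the hippocampus, Hdac2 and Hdac3 are known as restraints on memory formation and on genes of synaptic plasticity.

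The gene models on GRCm38 were checked first, because a count is only as good as the sequence that reads can be placed on. Hdac1 (ENSMUSG00000028800) lies at chr4:129516104-129542713 on the minus strand. Hdac2 (ENSMUSG00000019777) lies at chr10:36974544-37001889 on the plus strand. Hdac8 lies at chrX:102284639-102505359, also minus. Hdac11 lies at chr6:91156665-91174692, plus strand. Their exonic lengths were close, from 3445 bases for Hdac1 to 4839 bases for Hdac8.

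Hdac1 was the member with near-identical copies among the annotated transcripts of other genes. The search took exact matches among GENCODE M21 transcripts, and the rest of the genome was not searched. Of its exonic stretches of 50 bases, the read length, 35.5% occurred word for word at another place. Gm10093, a processed pseudogene at chr17:78491582-78493025 on the plus strand, held 31.7% of them, and 80.2% of the stretches within the coding sequence (1121 of 1397). The stretches shown next make this visible. The first, from exon 2 of Hdac1 (chr4:129534677-129534726, minus strand), is identical in Gm10093 (chr17:78491631-78491680, plus strand), so a read of it has no unique place.
Hdac1 and Gm10093: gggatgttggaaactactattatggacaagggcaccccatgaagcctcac
In the second, from exon 5 of Hdac1 (chr4:129523025-129523074), the copy (chr17:78491964-78492013) differs by C26T, counted from 1 at the 5′ end with the Hdac1 base first. The capital marks that base, which alone separates the genes here.
Hdac1: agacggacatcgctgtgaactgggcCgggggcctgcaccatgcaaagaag
Gm10093: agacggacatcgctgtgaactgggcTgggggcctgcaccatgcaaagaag
Reads that fall on several places carry a low mapping quality, and the authors removed low-quality alignments. Gm10093 was counted at 2, 3 and 4 reads in the Control libraries and at 4, 2 and 2 in the P300-ifKO libraries. Another copy, Gm4864, which held 4.41% of the stretches, had 0 in every library. Counts of AC125456.1, a processed pseudogene that held 4.84% of them, were not looked up. Gm10093 and Gm4864 therefore took few counted reads. If reads with several places were removed, the count of Hdac1 rests mainly on its unshared bases. Counts are per gene, so where the reads of Hdac1 fell was not measured. Hdac2, Hdac3 and Hdac8 had no stretch in common with another gene. Hdac11 is overlapped on the opposite strand by Gm44002, at 0 counts in all 6 libraries, and Gm14573, at 0 to 4 counts, across 690 exonic bases. Since no strand setting is stated, reads there cannot be assigned to a strand. How reads over overlapping genes were counted is not stated either. The low counts of Gm44002 and Gm14573 thus do not show that no reads fell there.

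The libraries held 23151568 to 28433823 counts, and the targeted gene was read next. Ep300 had 1545, 1474 and 2334 normalized counts (counts divided by the size factor of the library) in Control against 478, 1350 and 912 in P300-ifKO. Every P300-ifKO library was below every Control library, at a log2 fold change of −0.97 (SE 0.33, DESeq2 adjusted p = 0.991, unadjusted p = 0.00369). Its count does not resolve the recombined exon. The driver was seen through Esr1, whose ligand binding domain is part of creERT2: 109, 87.2 and 108 normalized counts in Control against 4217, 2416 and 2868 (log2 fold change 4.96, adjusted p = 4.47e-92). Crebbp stood at −0.055 (SE 0.11, adjusted p = 0.991). The P300-ifKO libraries did not form a tight group. Counts relative to the mean of all libraries rose or fell with exonic length, with a Spearman rho across 17071 genes of −0.50, 0.42 and −0.28 in P300-ifKO replicates 1, 2 and 3 and of 0.16 to 0.41 in Control. Genes are not independent replicates, and these values are a description of the libraries. The members are therefore given with and without P300-ifKO replicates 1 and 2 below.

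No member passed the test between P300-ifKO and Control. The DESeq2 count was 0 of 5 at an adjusted p under 0.05, against 2 of 32773 genes tested (0.00610%; Esr1 and Arsi), and 0 of 5 at an unadjusted p under 0.05, against 1.32% of genes. The edgeR quasi-likelihood test and limma-voom also called 0 of 5, against 0.0117% of the genes each tested. The fitted log2 fold change (P300-ifKO over Control) was above 0 for all 5, with a median of 0.11. Over all genes tested 45.3% were above 0 with a median of −0.046, and 49.3% of genes with a mean normalized count of 100 or more. The adjusted p was 0.991 for each member. In none of the 5 did the groups stand apart, a pattern seen with P300-ifKO above in 3.21% of genes and below in 3.42%. The p-values measure the spread between mice, 3 in each group.

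Hdac1 had 332, 295 and 347 normalized counts in Control against 361, 328 and 372 in P300-ifKO. The lowest P300-ifKO mouse lay below the highest Control mouse. The means were 325 ± 26.6 and 354 ± 23.1 (SD, n = 3 each), a log2 fold change of 0.12 (SE 0.15, 95% interval −0.18 to 0.42). On a percent scale the interval ran from −11.7% to 34.2%.

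Hdac2, the paralog most studied in memory, had 2328, 2515 and 2274 normalized counts in Control against 2675, 2290 and 2573 in P300-ifKO. P300-ifKO replicate 2 sat among the Control mice, and the other two were above them. The means were 2372 ± 127 and 2513 ± 199 (SD, n = 3 each), and the log2 fold change was 0.083 (SE 0.12, interval −0.16 to 0.32). As a percent change the interval ran from −10.3% to 25.0%.

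Hdac3 (chr18:37935844-37955016, minus strand) had the largest fold change among the members. Its normalized counts were 3097, 3052 and 2735 in Control against 3907, 3063 and 3291 in P300-ifKO. P300-ifKO replicate 1 was the highest of the 6 libraries, and replicate 2 fell between the Control mice. The means were 2961 ± 197 and 3421 ± 437 (SD, n = 3 each), a log2 fold change of 0.21 (SE 0.14, interval −0.070 to 0.49, DESeq2 adjusted p = 0.991, unadjusted p = 0.143). The interval spans −4.74% to 40.0%.

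Hdac8 had 328, 420 and 341 normalized counts in Control against 393, 377 and 409 in P300-ifKO. The highest library was Control replicate 2, and the P300-ifKO mice were close to each other. Their means of 363 ± 49.9 and 393 ± 15.8 (SD, n = 3 each) gave a log2 fold change of 0.11 (SE 0.16, interval −0.20 to 0.43).

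Hdac11 had 3857, 3785 and 3427 normalized counts in Control against 4597, 3351 and 3940 in P300-ifKO. The highest and the lowest of all 6 libraries were both P300-ifKO, replicates 1 and 2. The means were 3690 ± 230 and 3963 ± 623 (SD, n = 3 each), and the log2 fold change was 0.10 (SE 0.15, interval −0.20 to 0.40).

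**Figure D1:**
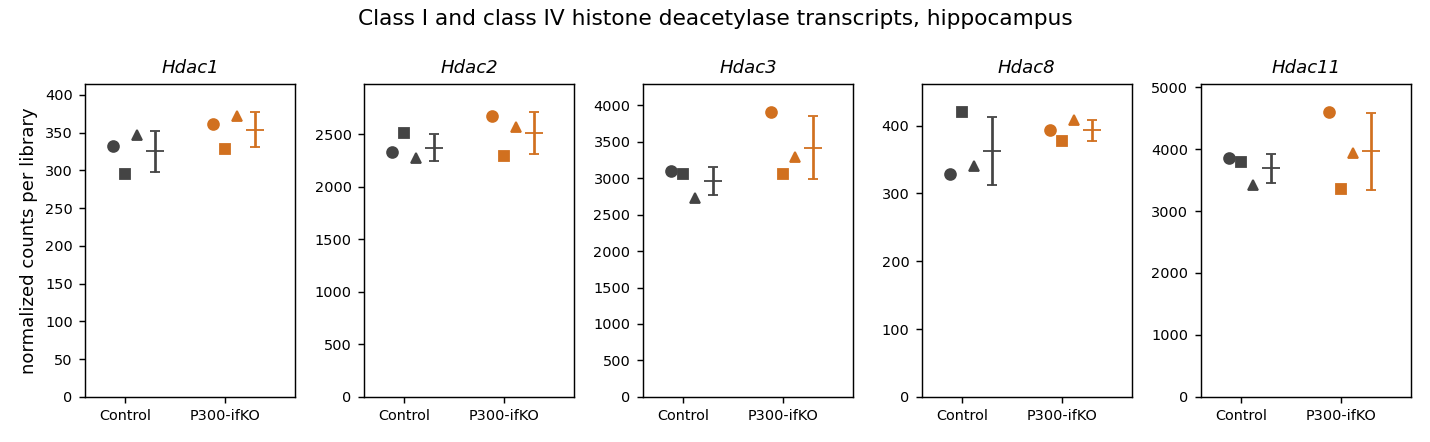
Normalized counts (y axis, from 0) of the 5 genes in each library; circles, squares and triangles are replicates 1, 2 and 3, and the bar beside them is the mean ± SD of 3 mice. The groups overlap in every panel, and the spread of P300-ifKO is widest for Hdac11 (3351 to 4597) and Hdac3 (3063 to 3907).

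The depth behind these values differed more between the members than the width of their intervals did. Hdac1 was read 281 to 386 times per library and Hdac8 330 to 427 times, where counting alone gives a coefficient of variation of 4.84% to 5.97%. Hdac11 was read 3358 to 4280 times, with 1.53% to 1.73% from counting. Against that, the coefficient of variation between the P300-ifKO mice was 15.7% for Hdac11 and 12.8% for Hdac3, and 6.25% and 6.67% between the Control mice. For the abundant members the spread between mice was thus several times the counting error.

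The fold changes moved with the P300-ifKO library left out. Without replicate 1 they were 0.11 for Hdac1, 0.034 for Hdac2, 0.10 for Hdac3, 0.11 for Hdac8 and −0.019 for Hdac11. Without replicate 2 they were 0.18, 0.15, 0.28, 0.15 and 0.21 in the same order. Hdac3 then reached an unadjusted p of 0.0390 (DESeq2 adjusted p = 0.137), in a fit that called 951 genes, 8.72% of the 10912 tested. The P300-ifKO libraries left there had a rho with exonic length of −0.50 and −0.28, against 0.16 to 0.41 in Control. Group and the trend with length therefore cannot be told apart in that fit. Across 16 settings of the test 0 members were called. Over all genes the share called was 0.00610% to 0.0122% with all 6 libraries (0.0116% with a count minimum and 0.0122% with a replicate block), and 0.00933%, 0.00620% and 0.00633% without Control replicates 1, 2 and 3. It was 0.00620% and 0.00622% without P300-ifKO replicates 1 and 3. Hdac3 ranged from 0.10 to 0.28, and Hdac11 was above 0 in 14. With 1 surrogate variable in the fit the SE of the abundant members shrank: Hdac11 was −0.017 (SE 0.065) and Hdac2 0.026 (SE 0.073). Hdac3 was 0.11 (SE 0.068, interval −0.020 to 0.24) in that fit.

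**Figure D2:**
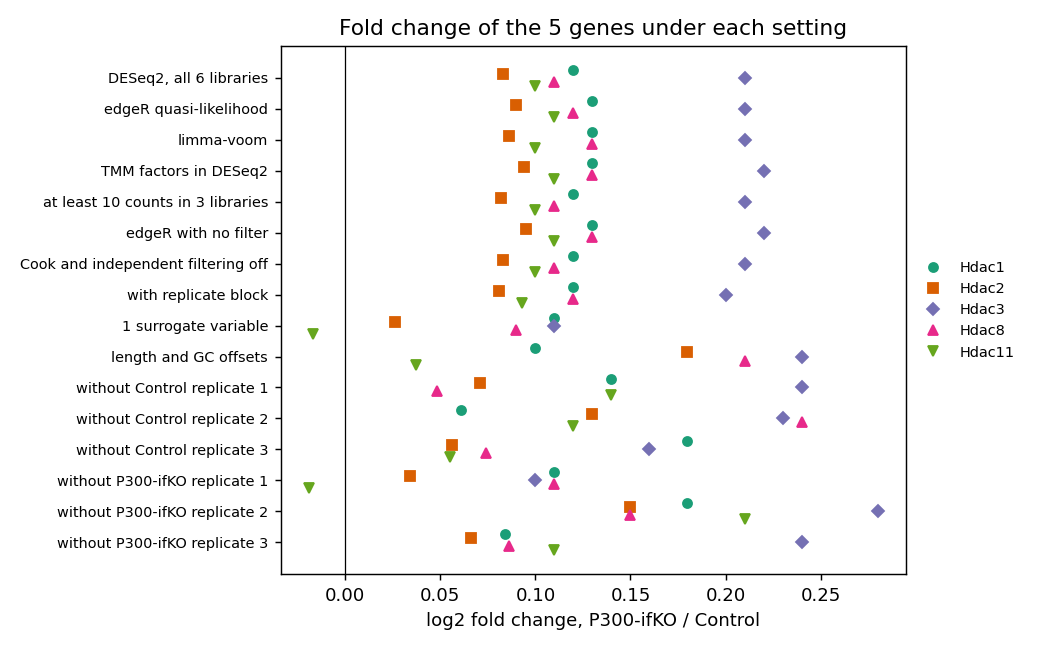
Log2 fold change of P300-ifKO over Control (x axis) of the 5 genes under 16 settings (rows), with a symbol for each gene. Hdac3 lies to the right in most rows, up to 0.28 without P300-ifKO replicate 2, and Hdac11 crosses 0 with 1 surrogate variable and without P300-ifKO replicate 1.

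The members were of similar length, and length moved with the fold change over all genes. Across 17070 genes the log2 fold change had a Spearman rho of −0.44 with exonic length, given as a description. With length and GC offsets fitted in each library, the log2 fold changes were 0.10 for Hdac1, 0.18 for Hdac2, 0.24 for Hdac3, 0.21 for Hdac8 and 0.037 for Hdac11. All 5 stayed above 0, and the DESeq2 adjusted p was 0.953 or more.

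**Figure D3:**
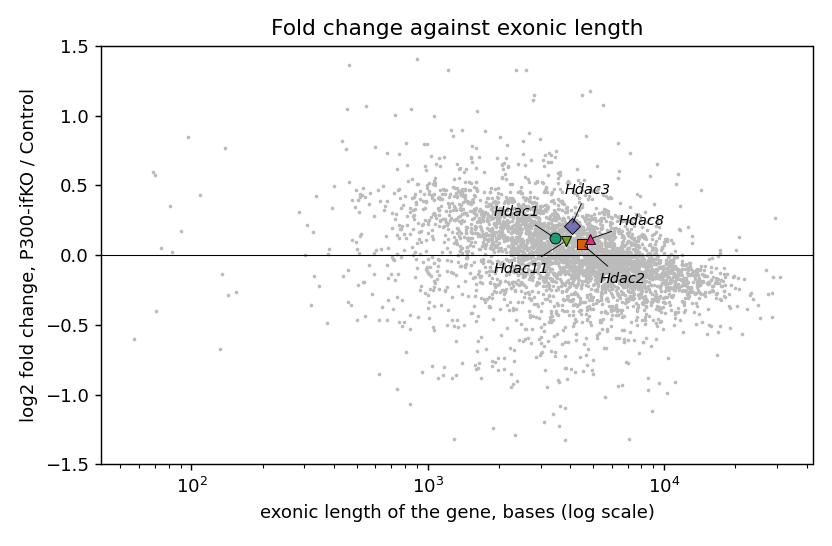
Log2 fold change (y axis) against exonic length in bases (log x axis) for the 5 members, drawn as large symbols, and 3999 other genes drawn at random, in grey; 6 grey genes lie beyond ±1.5. The members sit close together between 3445 and 4839 bases and between 0.083 and 0.21.

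Levels per exonic length were compared next, as RPKM, which divides counts by exonic length and by the library total. Hdac11 was highest at 39.8 ± 4.82 RPKM (SD over 6 libraries), above 96.7% of the genes tested. Hdac3 followed at 31.6 ± 4.03 and Hdac2 at 21.9 ± 1.60. Hdac1 at 3.95 ± 0.363 and Hdac8 at 3.13 ± 0.304 were far lower, above 73.7% and 70.8% of the genes tested. Only 17070 of the 32773 genes tested had a mean normalized count above 10, so these percentages include many genes near 0. Hdac11 was above Hdac3 in 6 of 6 libraries, by 1.15 to 1.32 times. Their ranges over libraries overlapped (34.6 to 48.0 and 27.1 to 38.8 RPKM). The level of Hdac11 was taken over its full length, with the 690 bases overlapped on the opposite strand included. If reads over those bases went uncounted, this level is too low. Hdac3 and Hdac2 did not overlap, and Hdac2 exceeded Hdac1 by 5.05 to 6.56 times. Hdac1 and Hdac8 overlapped, with Hdac1 higher in 5 of 6 libraries.

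The shared sequence of Hdac1 bears on its place in this order. All counts of Hdac1 were divided by its length without stretches found elsewhere, as if no counted read fell on shared ones. On that scale Hdac1 was at 6.12 ± 0.563 RPKM (5.23 to 6.84 over the 6 libraries). It was then 1.53 to 2.22 times Hdac8, without overlap, and Hdac2 was 3.25 to 4.23 times Hdac1. The order of the 5 genes was the same on both scales.

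**Figure D4:**
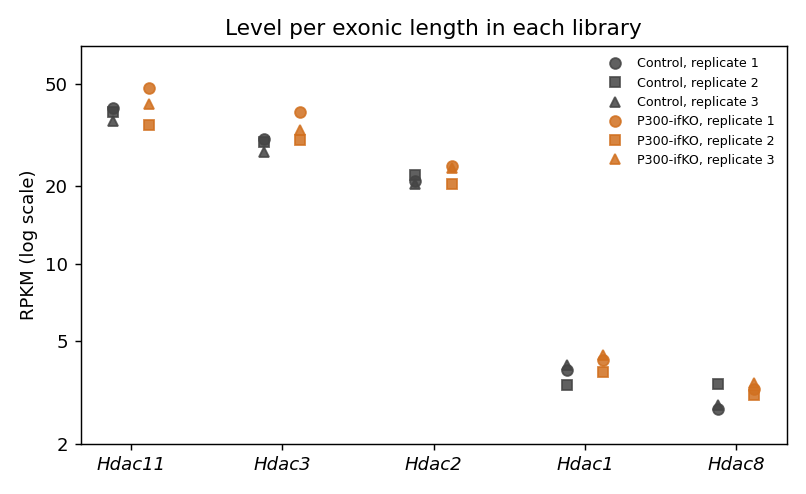
RPKM (log y axis) of each gene in each library, by exonic length; grey symbols are Control and orange symbols P300-ifKO. Hdac11, Hdac3 and Hdac2 lie between 20.4 and 48.0 and Hdac1 and Hdac8 between 2.72 and 4.41.

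Each member took a similar share of the family in all 6 libraries. Hdac11 made up 37.7% to 40.9% of the summed RPKM of the 5 genes across libraries, Hdac3 30.1% to 32.8% and Hdac2 20.3% to 22.8%. Hdac1 added 3.47% to 4.49% and Hdac8 2.76% to 3.51%. Over the length without shared stretches the share of Hdac1 was 5.28% to 6.79%. The sum was 98.3, 97.2 and 90.1 RPKM in Control against 118, 92.0 and 106 in P300-ifKO. The groups overlapped, with the lowest sum in Control replicate 3 and the highest in P300-ifKO replicate 1. Of the 10 ratios between pairs of members, 1 did not overlap between groups. With no difference between groups, a share of 0.1 of the splits of 3 against 3 mice stand apart. Ratios of members were planned as descriptions, and the test below was added to that plan. Hdac11 over Hdac3 was 1.31, 1.31 and 1.32 in Control against 1.24, 1.15 and 1.26 in P300-ifKO, a log2 difference of −0.11. The two-sided exact permutation test gave p = 0.100, the smallest that 3 against 3 mice allow, and 1.0 after adjustment over the 10 ratios.

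The 6 class II genes were Hdac4, Hdac5, Hdac6, Hdac7, Hdac9 and Hdac10, whose products shuttle between nucleus and cytoplasm or act in the cytoplasm. These 6 also had 0 calls by DESeq2, against 0.00610% of all genes tested. Their median log2 fold change was −0.0023, with 3 above 0 and 3 below, and their summed level was 52.6 to 55.4 RPKM over the 6 libraries. Hdac9 was the lowest, with 1283, 1192 and 1235 normalized counts in Control against 598, 1166 and 927 in P300-ifKO. All its P300-ifKO mice were below all Control mice (log2 fold change −0.46, SE 0.23, DESeq2 adjusted p = 0.991, unadjusted p = 0.0464). That pattern was seen in 3.42% of all genes tested. P300-ifKO replicate 2 was nearest to the Control mice. Without that replicate Hdac9 was at −0.69 with a DESeq2 adjusted p of 0.0210, in a fit that called 8.72% of the genes tested. Hdac9 has 14838 exonic bases, and group and the trend with length cannot be told apart in that fit. Hdac6, the tubulin deacetylase, was the highest at 0.078 (SE 0.11). Its P300-ifKO libraries were all above its Control libraries, as in 3.21% of all genes tested.

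The partners of Hdac1, Hdac2 and Hdac3 were then read complex by complex. Of 42 genes of the 5 corepressor complexes, 0 were called by DESeq2, edgeR or limma-voom, against 0.00610%, 0.0117% and 0.0117% of all genes tested. An unadjusted DESeq2 p under 0.05 was reached by 2 of the 42, against 1.32% of all genes. The median log2 fold change of the 42 genes was −0.039, close to the −0.046 of all genes. Of them 17 were above 0 and 25 below, where 45.3% of all genes were above 0. All P300-ifKO libraries were above Control for 1 of the 42 genes and below it for 1, against 3.21% and 3.42% of all genes.

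NuRD joins deacetylation to nucleosome remodelling. Its 13 genes had a median of −9.9e-05, 6 above 0 and 7 below. Chd3 and Chd5, remodelling ATPases, were at −0.14 (SE 0.17) and −0.17 (SE 0.21), and Chd4 at −0.055 (SE 0.16). The scaffold subunits were at 0.020 for Mta1, 0.047 for Mta2 and −0.21 for Mta3. The histone chaperones were at 0.11 for Rbbp4 (SE 0.11) and 0.057 for Rbbp7 (SE 0.12). The ends of the list were Gatad2b at −0.22 (SE 0.19) and Mbd3, which bridges the complex, at 0.34 (SE 0.22). Mbd3 had 2502, 2476 and 2188 normalized counts in Control against 4081, 2260 and 2752 in P300-ifKO, so P300-ifKO replicate 1 stood well above the other 5 libraries. Without P300-ifKO replicate 2 Mbd3 was at 0.52 (DESeq2 adjusted p = 0.0419), in a fit that called 8.72% of the genes tested. Mbd3 has 1987 exonic bases, and that fit does not separate group from the trend with length.

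CoREST pairs Hdac1 and Hdac2 with the histone demethylase Kdm1a, which was at 0.10 (SE 0.12). Its 9 genes had a median of −0.10, 3 above 0 and 6 below. The scaffold genes were at −0.15 for Rcor1 (SE 0.22), 0.18 for Rcor2 (SE 0.16) and −0.023 for Rcor3 (SE 0.20). Phf21a was the lowest at −0.18 (SE 0.15) and Hmg20b the highest at 0.24 (SE 0.19).

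Sin3 is a scaffold complex recruited by many repressors. Its 13 genes had a median of −0.016, 6 above 0 and 7 below, with Sin3a at −0.067 (SE 0.13) and Sin3b at 0.016 (SE 0.10). Both genes with an unadjusted p under 0.05 belonged here and encode related subunits. Sap30 and Sap30l are short, at 1178 and 1151 exonic bases, and the fold change over all genes fell with length (rho −0.44). Sap30 had 128, 162 and 116 normalized counts in Control against 220, 161 and 189 in P300-ifKO (log2 fold change 0.49, SE 0.22, DESeq2 adjusted p = 0.991, unadjusted p = 0.0298). A single pair of mice overlapped, Control replicate 2 and P300-ifKO replicate 2. Its paralog Sap30l had 278, 251 and 263 against 475, 321 and 291, with no overlap (log2 fold change 0.45, SE 0.22, DESeq2 adjusted p = 0.991, unadjusted p = 0.0398). Arid4b was at the other end, at −0.29 (SE 0.27).

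NCoR carries and activates Hdac3. Of its 4 genes read here 3 were below 0, with a median of −0.13. The scaffold gene Ncor1 (−0.26, SE 0.22) had the sign opposite to Hdac3. Ncor1 had 4709, 4888 and 6232 normalized counts in Control against 3255, 5610 and 4319 in P300-ifKO. For Ncor1 P300-ifKO replicate 1 was the lowest library, where Hdac3 was at its highest, and the groups overlapped. Tbl1xr1 was at −0.11 (SE 0.14) and Gps2 was the highest at 0.29 (SE 0.20).

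MiDAC has a scaffold, Dnttip1, at 0.29 (SE 0.22). The other two genes, Elmsan1 and Trerf1, were each at −0.21. In all 5 complexes the gene with the highest fold change was shorter than the gene with the lowest. The highest had 1178 to 3149 exonic bases and the lowest 7611 to 16965. Over the 42 genes the median length was 3149 bases for those above 0 and 8019 bases for those below. With length and GC offsets Chd4, Rcor3, Sin3a and Tbl1xr1 turned to above 0 (0.020, 0.18, 0.00099 and 0.073) and Mta1 to below it (−0.073), and the medians moved to −0.049 for NuRD, 0.050 for CoREST and 0.070 for Sin3.

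**Figure D5:**
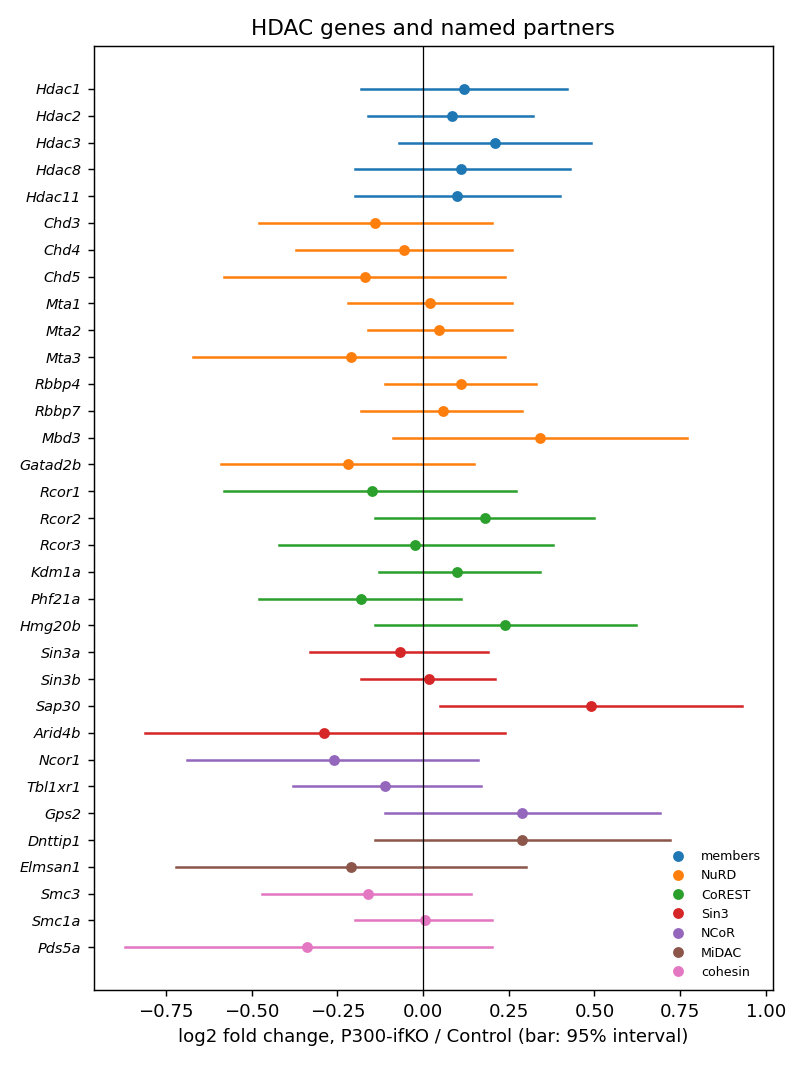
Log2 fold change of P300-ifKO over Control (points) with its 95% interval (bars) for the 5 members and selected genes of the complexes and cohesin, coloured by complex; Sap30l is not drawn. All intervals drawn include 0 except that of Sap30 (0.048 to 0.93).

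For Hdac8 the related genes were those of cohesin, the ring that holds chromatin loops. Smc3, its substrate, had 1456, 1525 and 1664 normalized counts in Control against 1155, 1549 and 1444 in P300-ifKO, and the groups overlapped (log2 fold change −0.16, SE 0.16). Of 9 cohesin genes 8 were below 0 with a median of −0.17 and 0 calls by DESeq2, against 0.00610% of all genes tested. Over all genes tested 45.3% were above 0. The median of the cohesin genes varied between libraries of a group with an SD of 0.238 on the log2 scale. Smc1a was the highest at 0.0043 (SE 0.10), and Pds5a, the longest at 19335 bases, was the lowest at −0.34 (SE 0.27).

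Factors that bring class I enzymes to DNA had 0 DESeq2 calls among 7 genes, against 0.00610% of all genes tested, and a median of −0.16. Zbtb16 was the lowest and the most variable, with 1137, 1133 and 1579 normalized counts in Control against 216, 1623 and 578 in P300-ifKO (log2 fold change −0.67, SE 0.78). P300-ifKO replicate 2 lay above every Control mouse and the other P300-ifKO mice below. Without that replicate Zbtb16 was at −1.69 (DESeq2 adjusted p = 0.0332), in a fit that called 8.72% of the genes tested. Ikzf1 was the highest at 0.15 (SE 0.22). Of 13 plasticity genes, 0 were called, against the same 0.00610%, 2 were above 0 and the median was −0.093. Their ends were Grin2b, a subunit of the NMDA receptor, at −0.36 (SE 0.25), and the activity-regulated gene Arc at 0.15 (SE 0.25). In that same fit without P300-ifKO replicate 2, Grin2b was at −0.64 (DESeq2 adjusted p = 0.0242) and Arc at −0.13. Grin2b has 24842 exonic bases, and that fit does not separate group from the trend with length. The median of the plasticity genes was then −0.29, and it ranged from −0.29 to −0.044 with each library left out in turn.

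The marker lists checked the tissue. No marker of excitatory neurons, interneurons, astrocytes, oligodendrocytes, their precursors, microglia or endothelium was at 0 in any library. DESeq2 called 0 of the markers, against 0.00610% of all genes tested. The summed RPKM of the 8 excitatory neuron markers was 934 to 1059 in Control and 922 to 1083 in P300-ifKO, with a median log2 fold change of −0.10. Oligodendrocyte markers had a median of 0.19, with 5 of 6 above 0, and sums of 681 to 926 and 729 to 938. The 6 microglia markers summed to 122 to 135 in Control and 133 to 171 in P300-ifKO (median 0.10). The 6 astrocyte markers summed to 432 to 446 in Control and to a lower range, 406 to 425, in P300-ifKO (median −0.10, 4 of 6 below 0). Gene by gene, all P300-ifKO libraries were below Control for 1 of these 6, against 3.42% of all genes tested. All 3 markers of oligodendrocyte precursors were below 0, with a median of −0.25 and sums of 15.2 to 17.7 and 10.9 to 15.8. Interneuron markers had a median of −0.057 with sums of 401 to 500 and 365 to 579, and endothelial markers −0.062 with sums of 46.2 to 48.4 and 44.6 to 60.4. The part of these cells in the members' values was not tested.

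Genes whose pattern over the 6 libraries was most like that of each member were found by the root mean square (RMS) difference of centred log2 normalized counts, among 12253 genes with a mean of 100 or more. Hdac2 had the closest neighbour, the chaperone gene Dnaja1, at an RMS difference of 0.00956, then Lyar and Sec22b. The genes nearest to Hdac3 were Zkscan14 (0.0172), Pld3 and Cstf1. Hdac11 was nearest to Tmem204 (0.0196), Etfa and Mapre3. Hdac1 was nearest to Rarg (0.0224), a retinoic acid receptor gene, then Arfgap3 and Slc39a2. Hdac8 had the most distant neighbours, D030056L22Rik (0.0425), Bhlhe22 and Dctd. None of the 15 was another HDAC or a gene of the complexes, and with 6 libraries and so many genes searched such closeness describes these libraries only.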

How the data were processed

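RNA-seq of hippocampus from 6 mice (1 library each, 3 Control and 3 P300-ifKO, grouped by sample title) was used. The deposited table holds raw counts of reads per gene: the authors trimmed single-end 50 bp reads (FastQC 0.11.8, Trim Galore 0.6.4), aligned them with STAR 2.6.1 to GRCm38, removed alignments of low mapping quality and counted exonic reads with Rsubread. A strand setting is not given in the sources used here. Removing such alignments lowers the counts of genes with near-identical copies.

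Of 55471 genes, 55230 (99.6%) matched GENCODE M21, which gave coordinates, length and sequence. Counts were fitted with DESeq2 1.42.0 (R 4.3.3; the submitters' notes name 1.30.1): two-sided Wald test, no covariate, Benjamini-Hochberg adjustment over 32773 genes, threshold 0.05. Intervals are 95% Wald intervals. Alternatives were edgeR 4.0.16 (quasi-likelihood), limma 3.58.1 (voom), TMM factors, a minimum of 10 counts in 3 libraries, no filter, a replicate block, 1 surrogate variable (sva 3.50.0), length and GC offsets (mgcv 1.9.3) and leaving out each library. The number of unused sample columns was 0. Fits were tested on simulated data first. Totals of 23151568 to 28433823 counts per library were the depth.

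Named genes were the 5 members, the targeted and driver genes, chosen core subunits, the extreme genes of each list, list genes with an adjusted p under 0.05, and the 3 nearest genes of each member. Sap30l and Trerf1 and the copies and overlapping genes were named after their values were seen. A further gene fixed for naming is not reported here and was left out of its list. The members and lists were chosen with earlier results of these data known.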

Additional observations from a re-analysis of the deposited data

How the results depend on the processing

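The members kept 0 calls under all 15 alternatives, and the direction of Hdac1, Hdac2, Hdac3 and Hdac8 was kept in each. Hdac11 turned to −0.017 with 1 surrogate variable and to −0.019 without P300-ifKO replicate 1 (range with a library left out −0.019 to 0.21). The number of genes called was 2, rose to 4 with the replicate block and to 4 with 1 surrogate variable, and ranged from 2 to 951 when a library was left out. The 951 came without P300-ifKO replicate 2 (4091 at an unadjusted p under 0.05) and shared 1 gene with the 2. That fit adjusted over 10912 genes, against 32773 in the DESeq2 fit of all 6 libraries. Genes outside the 10912 could not be called in it. Group and the trend with exonic length cannot be told apart with P300-ifKO replicate 2 left out. With that library left out Ep300 was at −1.36 (DESeq2 adjusted p = 0.000349), Zbtb16 at −1.69 (0.0332) and Grin2b at −0.64 (0.0242). Ep300 also passed with 1 surrogate variable (−0.69, 4.59e-09).

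Whether replicate numbers pair the mice is not stated. Deviations of same-numbered mice from their group means correlated at 0.27, −0.28 and 0.13. These values cannot decide it, because deviations of 3 mice from their own mean are not independent. With the replicate block the members were at 0.12, 0.081, 0.20, 0.12 and 0.093, in the order Hdac1, Hdac2, Hdac3, Hdac8, Hdac11.

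Of 43 named genes, 14 turned sign in at least 1 setting. With 1 surrogate variable these were Chd4 0.057, Mta1 −0.039, Rcor3 0.12, Sin3b −0.0082 and Smc1a −0.015. With length and GC offsets they were Crebbp 0.11, Chd4 0.020, Mta1 −0.073, Rcor3 0.18, Sin3a 0.00099 and Tbl1xr1 0.073, and the medians of NuRD, CoREST and Sin3 moved to −0.049, 0.050 and 0.070. With a library left out, Arc ranged from −0.13 to 0.30, Mta1 from −0.050 to 0.064, Rcor3 from −0.21 to 0.14, Smc1a from −0.021 to 0.029, Chd4 from −0.17 to 0.075, Chd5 from −0.41 to 0.017, Mta3 from −0.47 to 0.0029, Rcor1 from −0.36 to 0.011, Sin3b from −0.014 to 0.039 and Elmsan1 from −0.51 to 0.027. List medians then ranged from −0.012 to 0.049 for NuRD, −0.21 to 0.024 for CoREST, −0.014 to 0.033 for Sin3, −0.053 to 0.024 for class II and −0.29 to −0.044 for plasticity genes. The cause was not tested.

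As TPM (transcript shares) the levels were 149 for Hdac11, 118 for Hdac3, 81.8 for Hdac2, 14.8 for Hdac1 and 11.7 for Hdac8, in the order of the RPKM. The level of Hdac1 over unshared length, 6.12 RPKM, was chosen after seeing the data.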
